A study of Rattus norvegicus with 3 samples.

Results

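The 9 genes described here encode the pore-forming subunits of the AMPA and kainate receptors, with 4 AMPA subunits (Gria1 to Gria4) and 5 kainate subunits (Grik1 to Grik5). They were taken by their symbols, and each of the 9 stood on 1 row among the 30957 genes of the deposited tables. The tables hold messenger RNA levels in motor cortex from 3 Sprague-Dawley rats, all male and numbered 19, 35 and 70, after cerebral ischemia and reperfusion, the interruption of the brain's blood supply and its return. Each is labelled 8 weeks, which could be an age or a time since the ischemia. The rats make up a single group of n = 3, and controls were not analysed here. The labels name no allele or drug, and give neither the vessel that was closed nor the duration.

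AMPA and kainate receptors are glutamate-gated cation channels, each built from subunits that assemble as tetramers within their own family. AMPA receptors carry most of the fast excitatory current between cortical neurons, and the subunit encoded by Gria2, when its messenger RNA is edited at the pore, keeps calcium out of the channel. Kainate receptors act on both sides of the synapse. The subunits encoded by Grik1, Grik2 and Grik3 bind kainate with low affinity and can form channels alone, whereas those encoded by Grik4 and Grik5 bind it with high affinity and need one of the first set to form a channel.

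Levels are given as FPKM, the fragments of a gene divided by its length in kilobases and by the library's fragments in units of 1000000, always in the order rat 19, rat 35, rat 70. The effective depth was 15561621, 16460585 and 16049598 fragments. Rat 35 stood apart from the others in its cell type markers. The geometric mean of FPKM + 1 over 11 pan-neuronal markers was 84.2, 6.23 and 127, and all 11 were lowest in rat 35, with Uchl1, the most abundant, at 646, 30.3 and 784 FPKM and the neurofilament gene Nefl at 60.8, 3.40 and 208. The opposite order held for microglia and phagocyte markers, of which 9 of 9 were highest in rat 35, with a summed FPKM of 852, 9016 and 914, of which Spp1, the gene of osteopontin, gave 224, 4161 and 126. Genes that mark cortical excitatory neurons checked the tissue label. Slc17a7, the vesicular glutamate transporter of these neurons, was at 324, 12.2 and 383 FPKM, the kinase gene Camk2a at 129, 13.4 and 459, and Tbr1, a transcription factor of deep-layer cortical neurons, was at 14.0, 0.030 and 3.51. Tbr1 was thus close to 0 in rat 35. In bulk tissue, fewer neurons and less RNA per neuron cannot be told apart, and this holds for each level below.

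Gria2 had the highest mean FPKM of the 9 genes. It lies on chromosome 2, 179584308 to 179704629, on the minus strand (Rnor 6.0, as are the other positions of the files), and stood at 75.7, 8.07 and 77.5 FPKM (53.8 ± 39.6, SD, n = 3). Rats 19 and 70 were nearly level, and rat 35 lay 9.39-fold and 9.61-fold below them. Gria3 (chromosome X, 127562660 to 127829753, plus strand), whose product pairs with that of Gria2 in cortical receptors, followed at 40.8, 4.18 and 49.7 (31.6 ± 24.1). Its order across rats was the same. The length recovered for Gria3 from the steps of the values, 1715 bases, is the shortest that fits and was short against 3427 for Gria2. A whole multiple of it cannot be told apart from it, so the fragments given for Gria3 are a lower bound, while its deposited FPKM is the same either way.

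Gria1 (chromosome 10, 42614713 to 42760200, plus strand) encodes the subunit best known for its delivery to synapses during potentiation. It was at 19.1, 3.00 and 55.7 FPKM (25.9 ± 27.0), and unlike Gria2 it separated rats 19 and 70. Its level in rat 70 was 2.92-fold that in rat 19 and 18.6-fold that in rat 35, the widest range between rats among the 9 genes. Gria4 (chromosome 8, 1548146 to 2045817, minus strand), known from fast-spiking interneurons and glial precursors, was the lowest AMPA subunit at 12.2, 1.38 and 15.8 (9.78 ± 7.49).

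Among kainate subunits, Grik5 (chromosome 1, 81885521 to 81946714, minus strand) was far above the rest at 40.1, 8.73 and 45.7 FPKM (31.5 ± 19.9). Its level was close to that of Gria3 in rats 19 and 70, although its product cannot form a channel without a low-affinity partner. In rat 35 Grik5 was above Gria3, at 8.73 against 4.18 FPKM. It had the narrowest range of the 9 genes, 5.23-fold between the highest and lowest rat. Grik4 (chromosome 8, 46806147 to 47094352, minus strand), the other high-affinity subunit, was at 8.75, 3.30 and 20.7 (10.9 ± 8.91). Like Gria1 it was higher in rat 70 than in rat 19, by 2.37-fold, and it was the gene least reduced in rat 35 relative to rat 19, at 2.65-fold.

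The low-affinity kainate subunits were scarcer and had another order of rats. Grik2 (chromosome 20, 53789760 to 54517709, minus strand), the usual channel-forming partner in forebrain, was at 9.05, 1.09 and 7.48 FPKM (5.87 ± 4.22). Grik1 (chromosome 11, 27811957 to 27971359, minus strand), known from interneurons, was at 5.14, 0.466 and 2.78 (2.79 ± 2.34). Grik3 (chromosome 5, 143500441 to 143715546, plus strand) had the lowest mean of the 9, at 3.63, 0.518 and 2.06 (2.07 ± 1.55). All of these were highest in rat 19, where Grik1 was 1.85-fold, Grik3 1.76-fold and Grik2 1.21-fold above rat 70.

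**Figure D1:**
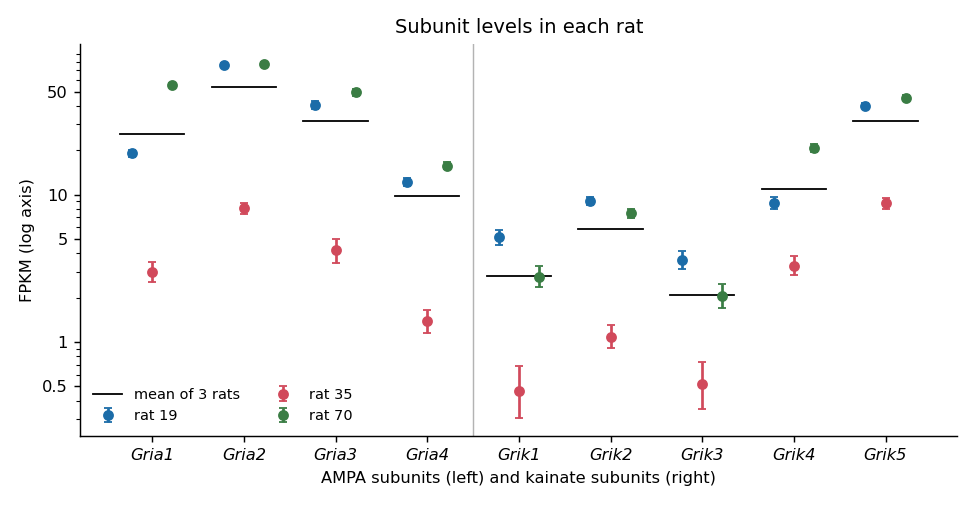
FPKM of the 9 subunit genes on a log axis, with 1 point per rat, bars for the 95% counting interval and a black line for the mean of the 3 rats. Rat 35 is lowest at every gene, Gria1 and Grik4 are higher in rat 70 than in rat 19, and Grik1, Grik2 and Grik3 are highest in rat 19.

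The fragments behind these values set their precision. They were recovered from the steps of the deposited FPKM, which came out as whole numbers for 9 of 9 members. The 9 genes rested on 11454, 1770 and 15093 fragments in all. Gria2 had 4038, 455 and 4264 fragments, while Grik1 had 271, 26 and 151 and Grik3 205, 31 and 120. In rat 35 the exact Poisson 95% intervals were therefore wide for the lowest pair, 0.304 to 0.683 FPKM for Grik1 and 0.352 to 0.736 for Grik3, so that a difference between them was not detectable at this depth. In rat 19 the same intervals, 4.55 to 5.79 and 3.15 to 4.16, did not overlap. These intervals cover counting error only.

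Upstream sequence is shown for the kainate subunits with the highest and the lowest mean FPKM. The start regions of genes at the ends of this order can thus be read side by side. The sequences are the 250 bases before the annotated start in RefSeq, build GRCr8, read 5′ to 3′ on the gene's strand. They span chr1:89794910-89795159 on the minus strand for Grik5 and chr5:143052192-143052441 on the plus strand for Grik3. Capitals mark GGGCGG, the GC box, on either strand.
Grik5: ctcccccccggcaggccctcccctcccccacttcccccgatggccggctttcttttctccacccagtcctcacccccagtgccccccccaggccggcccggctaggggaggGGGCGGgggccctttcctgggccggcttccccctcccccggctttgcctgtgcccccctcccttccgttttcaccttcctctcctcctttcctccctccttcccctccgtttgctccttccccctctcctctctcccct
Grik3: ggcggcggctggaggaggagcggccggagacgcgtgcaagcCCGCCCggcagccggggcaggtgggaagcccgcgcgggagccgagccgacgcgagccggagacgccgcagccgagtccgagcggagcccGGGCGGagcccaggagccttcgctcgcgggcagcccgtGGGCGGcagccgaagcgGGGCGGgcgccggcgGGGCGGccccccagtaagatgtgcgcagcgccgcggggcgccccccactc
The Grik5 stretch held 1 GC box and 10 CG dinucleotides at 70.8% GC. The Grik3 stretch held 5 GC boxes and 41 CG dinucleotides at 81.6% GC. Of all 33469 RefSeq stretches of this length, 30.5% held GGGCGG, and the median had 5 CG dinucleotides and 51.2% GC. Entries were matched for 6 of the 9 members, namely Gria4 and Grik1 to Grik5. Gria4, Grik1, Grik2 and Grik4 held no GGGCGG, with 14, 8, 5 and 3 CG dinucleotides. The cyclic AMP response element TGACGTCA, a palindrome found in 1.59% of all stretches, and TATAAA on either strand, found in 12.9%, were in none of the 6. These matches describe letters in a window of the current annotation and do not show binding.

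Subunit shares describe the make-up of each family within a rat and do not depend on how the libraries were scaled. Of the summed AMPA FPKM, Gria2 took 51.2%, 48.5% and 39.0% (46.3% ± 6.42, SD, n = 3) and Gria1 took 12.9%, 18.0% and 28.0% (19.6% ± 7.69). The Gria1 share in rat 70 was more than 2-fold that in rat 19, and the Gria2 share was correspondingly smaller there. Gria3 held 27.6%, 25.1% and 25.03% (25.9% ± 1.47). Gria4 held 8.24%, 8.30% and 7.94% (8.16% ± 0.192), a share that was nearly the same in all rats although its level ranged 11.4-fold.

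Of the summed kainate FPKM, Grik5 took 60.2%, 61.9% and 58.0% (60.0% ± 1.95). The high-affinity subunits together thus made up most of the family in each rat, and the low-affinity subunits, Grik1 to Grik3, made up 26.7%, 14.7% and 15.6% (19.0% ± 6.68). Grik4 took 13.1%, 23.4% and 26.3% (20.9% ± 6.94) and had the largest SD among the kainate shares, in percentage points. Grik2 took 13.6%, 7.70% and 9.50% (10.3% ± 3.01), Grik1 7.70%, 3.31% and 3.53% (4.84% ± 2.48) and Grik3 5.43%, 3.68% and 2.61% (3.91% ± 1.43). Rat 19 was set apart from the other rats by a smaller Grik4 share and larger shares of the low-affinity subunits.

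**Figure D2:**
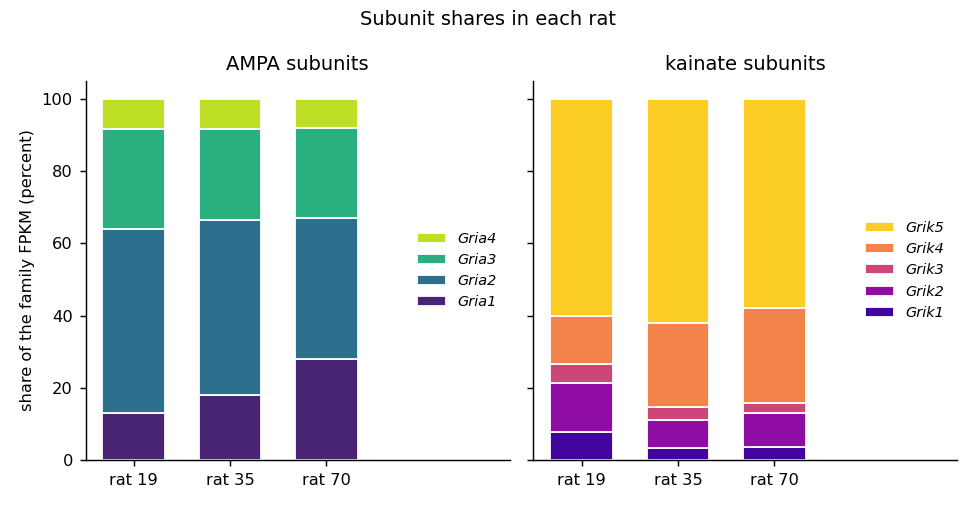
Share of each subunit in the summed FPKM of its family, in percent, with 1 bar per rat. Gria1 takes 12.9% in rat 19 and 28.0% in rat 70, where Gria2 takes 39.0%, and Grik4 takes 13.1% in rat 19 against 23.4% and 26.3% in rats 35 and 70, while Gria4 and Grik5 hold similar shares in all rats.

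Ratios of 2 subunits within a rat, with 95% counting intervals from the recovered fragments, located these differences. Gria1 over Gria2 was 0.252 (0.235 to 0.270), 0.372 (0.312 to 0.443) and 0.718 (0.686 to 0.752). The 3 intervals did not overlap, so the rats differed by more than counting error. Gria3 over Gria2 was 0.539 (0.504 to 0.577), 0.518 (0.423 to 0.635) and 0.642 (0.604 to 0.682), where rat 35 overlapped both of the others. Gria4 over Gria2 was 0.161 (0.150 to 0.172), 0.171 (0.140 to 0.209) and 0.204 (0.192 to 0.216), with the same overlaps. Because the fragments of Gria3 are a lower bound, its intervals may be too wide. Their overlap may thus depend on the recovered length and was not examined at 2 times that length.

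Grik4 over Grik5 was 0.218 (0.197 to 0.241), 0.378 (0.319 to 0.447) and 0.454 (0.423 to 0.486). Rat 19 lay below the other rats, whose intervals overlapped. Grik2 over Grik4, the low-affinity over the high-affinity member of this pair, was 1.03 (0.926 to 1.16), 0.329 (0.262 to 0.414) and 0.361 (0.330 to 0.395), a 3.14-fold range and the largest among the 9 ratios formed. The intervals of rats 35 and 70 overlapped, although their neuronal marker levels differed most. Grik1 over Grik5 was 0.128 (0.113 to 0.145), 0.053 (0.036 to 0.079) and 0.061 (0.052 to 0.072) where only rat 19 lay outside the intervals of the others. Grik2 over Grik5 was 0.226 (0.209 to 0.243), 0.124 (0.102 to 0.151) and 0.164 (0.151 to 0.177), and no intervals overlapped, although the bounds of rats 35 and 70 nearly met. Grik3 over Grik5 was 0.090 (0.078 to 0.104), 0.059 (0.041 to 0.085) and 0.045 (0.038 to 0.054), where rat 35 overlapped both of the others. The intervals hold counting error and not the spread between animals, so they compare the 3 libraries and no conditions.

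**Figure D3:**
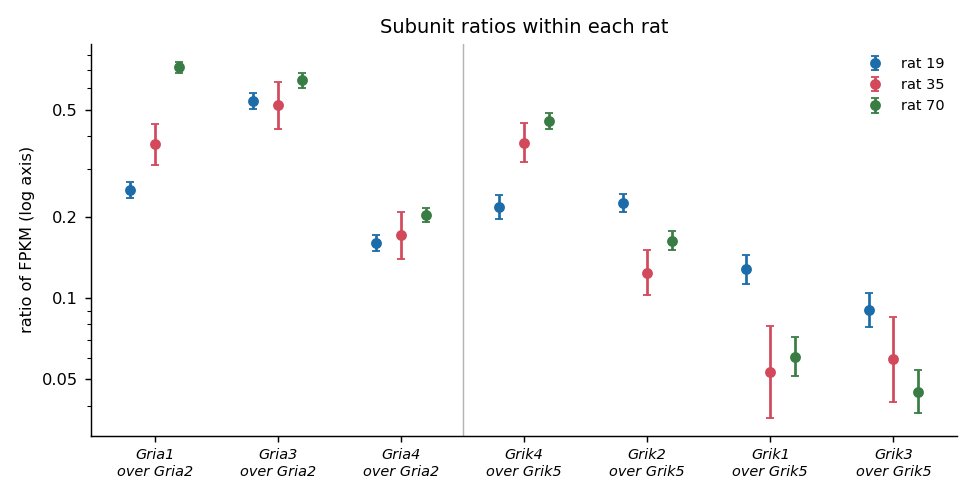
Ratios of FPKM between subunits within each rat on a log axis, AMPA over Gria2 on the left and kainate over Grik5 on the right, with bars for the 95% counting interval. Gria1 over Gria2 is 0.252 in rat 19 and 0.718 in rat 70 with no overlap, and for Grik4 and Grik1 over Grik5 rat 19 lies away from the other rats.

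The order of levels was examined between neighbours in each family by a two-sided exact sign-flip permutation test of the log2 ratio of FPKM + 1 over 3 rats. Its smallest possible p is 0.25, so no ratio could pass 0.05. Gria2 exceeded Gria3 in 3 of 3 rats, with a mean log2 ratio of 0.77 ± 0.13 (SD, n = 3). Gria1 exceeded Gria4 in 3 of 3 (1.04 ± 0.63), Grik5 exceeded Grik4 in 3 of 3 (1.45 ± 0.54) and Grik2 exceeded Grik1 in 3 of 3 (0.80 ± 0.34), each with an exact p = 0.25 and an adjusted p = 0.40 over 8 ratios. The other neighbours did not keep their order. Gria3 exceeded Gria1 in rats 19 and 35 only (1.06, 0.37 and -0.16), Grik4 exceeded Grik2 in rats 35 and 70 only (-0.04, 1.04 and 1.36), and Grik1 exceeded Grik3 in rats 19 and 70 only (0.41, -0.05 and 0.30), with an exact p = 0.50 (adjusted p = 0.50) for each. The sign of the log2 ratio thus changed between rats in these 3 pairs, but not always beyond counting error. Grik2 over Grik4 in rat 19 was 1.03, with a counting interval of 0.926 to 1.16 that holds both orders. Grik3 over Grik1 in rat 35 was 1.11 (0.660 to 1.87), which also holds both orders. For Gria3 against Gria1 the counting intervals of FPKM did not overlap in rat 19 (38.5 to 43.3 against 17.9 to 20.3). Nor did they in rat 70 (47.1 to 52.4 against 53.7 to 57.7). In rat 35 they overlapped at their bounds (3.46 to 5.01 against 2.57 to 3.48), where the interval of Gria3 may be too wide. With 3 rats the test cannot show whether the genes of a pair differ.

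Taken as families, AMPA subunits exceeded kainate subunits by FPKM in each rat. The summed AMPA FPKM was 148, 16.6 and 199 (121 ± 93.9, SD, n = 3), and the summed kainate FPKM was 66.7, 14.1 and 78.7 (53.2 ± 34.4). AMPA over kainate was 2.22, 1.18 and 2.52, and the log2 ratio of the sums was 0.89 ± 0.59 (exact p = 0.25, adjusted p = 0.40). AMPA subunits made up 68.9%, 54.1% and 71.6% of the summed FPKM of the 9 genes. By fragments, which are not divided by length, they made up 62.8%, 49.1% and 67.1%, so that in rat 35 the AMPA genes had fewer fragments than the kainate genes, 869 against 901. With Gria3 at a length of 3430 bases, 2 times the one recovered, these would be 987 against 901. Rat 35 was the one in which both families were close to level: against rat 19 it was lower by 8.89-fold for AMPA and by 4.73-fold for kainate, and against rat 70 by 11.95-fold and 5.58-fold.

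All 9 members were lowest in rat 35, whereas 36.5% of the 14134 genes that reached a mean FPKM of 1 were. The highest rat was 70 for 6 members, among them all 4 AMPA subunits (29.8% of all genes), and 19 for Grik1, Grik2 and Grik3 (24.8%). The same 9 differed by more than 2-fold on FPKM + 1 between their highest and lowest rat, as 42.5% of all genes did. On the same scale, 7 members were more than 4-fold lower in rat 35 than in rat 19, all 4 AMPA subunits among them, against 5.79% of all genes. The same number was more than 4-fold lower in rat 35 than in rat 70, against 7.76%. The median deviation of the 9 members from the 3-rat mean was 0.73, -1.45 and 1.05 on the log2(FPKM + 1) scale, against 0.02, 0.06 and -0.09 over all genes. Between rats 70 and 19, Gria1 and Grik4 exceeded 2-fold and were higher in rat 70, as 4.84% of all genes were. No member was more than 2-fold higher in rat 19, against 6.11%.

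The members moved with the neuronal markers but over a smaller range. The geometric mean of the 11 pan-neuronal markers spanned 4.35 on the log2 scale between rats 70 and 35, and the median member spanned 2.34. Relative to these markers all 9 members were highest in rat 35, as were 99.1% of all genes, so the count says nothing particular to the members. On this scale Gria2 was at -0.13, 0.54 and -0.69 and Grik5 at -1.03, 0.64 and -1.45 (log2). The 7 excitatory neuron markers measured spanned 3.64, with Slc17a6, which also marks subcortical neurons, among them at 1.73, 0.015 and 28.7 FPKM. Relative to them 5 of 5 kainate subunits and 2 of 4 AMPA subunits were highest in rat 35, against 97.5% of all genes. Gria2 relative to excitatory markers was at 1.11, 1.11 and 0.59 and Gria3 at 0.24, 0.31 and -0.04, the narrowest ranges of the 9, whereas Grik4 was at -1.86, 0.04 and -1.27. The part of neuronal content in the subunit levels was not tested.

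Markers of other cells that hold AMPA or kainate receptors were measured beside them. The 6 oligodendrocyte precursor markers had a summed FPKM of 170, 291 and 236 and no common order, with 3 of them lowest and 3 highest in rat 35. Olig1 was at 63.4, 49.98 and 104 FPKM and Pdgfra at 22.9, 152 and 39.1. Astrocyte markers were lowest in rat 35 for 5 of 8 (summed FPKM 1356, 489 and 1535), S100b at 721, 195 and 793 and Aldoc at 194, 42.2 and 317 among them. Fibroblast markers were highest in rat 35 for 4 of 4 that reached 1 FPKM (232, 2612 and 211), with Col3a1 at 81.7, 1086 and 68.3, and Col1a2 was listed at 0 in all rats. Oligodendrocyte markers were lowest in rat 35 for 3 of 6, with Mbp at 1736, 1392 and 2591 and Mobp at 80.9, 120.4 and 313. Endothelial markers were highest there for 4 of 4, with Cldn5 at 80.3, 131 and 63.7 and Cdh5 at 14.6, 37.2 and 9.81. Beside these counts and those of the neuronal and microglia markers, 36.5% of the 14134 genes were lowest in rat 35. The highest rat was 19 for 24.8% of them, 70 for 29.8% and 35 for the rest. Inhibitory neuron markers were lowest in rat 35 for 7 of 8 (summed FPKM 371, 49.6 and 343), and Lhx6 was lowest in rat 70 at 2.18, 1.70 and 1.06. The highest rat was 19 for 3 of them, with Sst at 205, 13.8 and 45.0. It was 70 for 5, with Gad2 at 28.0, 1.97 and 46.0 and Pvalb at 17.8, 4.41 and 75.5. Their part in the subunit values was not tested.

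Rats 19 and 70 also differed in markers of regions near the cortex and of subcortical neurons, beside the Gria1 and Grik4 values. C1ql2, a marker of dentate granule cells whose secreted product binds kainate receptors, was at 2.17, 0.178 and 28.7 FPKM, and Prox1 at 2.33, 1.80 and 10.2. The summed FPKM of the 5 dentate markers was 45.2, 8.92 and 72.6. Calb1, which cortical neurons also express, made up most of it in rat 19 at 40.5, 6.48 and 33.3. The other 4 summed to 4.68, 2.43 and 39.3, in rat 70 nearly all from C1ql2 and Prox1. Dsp at 0.188, 0.457 and 0.358 and Tdo2 at 0, 0 and 0.035 stayed below 1 FPKM in all rats. Slc17a6, the glutamate transporter of thalamic and other subcortical neurons, was at 1.73, 0.015 and 28.7. The striatal marker Penk was higher in rat 19, at 51.1, 6.06 and 6.28, but Ppp1r1b, another striatal marker, was at 36.7, 13.7 and 44.6. The 6 striatal markers summed to 102, 23.5 and 57.2, and without Penk to 51.3, 17.5 and 50.9. Penk thus carried the difference of the sums between rats 19 and 70, but the abundant Ppp1r1b dominated the remaining sum. Drd1 was also higher in rat 19, at 6.41, 0.380 and 1.73. Of the 5 that reached a mean FPKM of 1, 2 were more than 2-fold higher in rat 19 than in rat 70 on FPKM + 1, against 6.11% of all genes. In the other direction it was 0, against 4.84%. The part of these regions in the subunit differences was not tested.

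Related genes, namely auxiliary subunits, assembly, trafficking and clustering factors, NMDA and delta receptor subunits and RNA editing enzymes, were mostly lowest in rat 35 as well. Of 49 listed genes, 45 were in the files and 43 reached a mean FPKM of 1. Of these 43, 40 were lowest in rat 35 (36.5% of all genes), 3 were lowest in rat 70 (44.2%), and 38 differed by more than 2-fold between rats (42.5% of all genes). The median deviation was 0.31, -1.29 and 1.01. Of the 43, 13 were more than 2-fold higher in rat 70 than in rat 19, against 4.84% of all genes, and 0 were more than 2-fold lower, against 6.11%. No test applies to this count, which compares 1 animal with 1 animal, and after scaling by the median of ratios it was 14 higher and 0 lower. Without the NMDA, delta and editing genes, 30 of 32 were lowest in rat 35, 28 differed by more than 2-fold between rats, and 10 were more than 2-fold higher in rat 70 than in rat 19.

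The auxiliary subunits of AMPA receptors are membrane proteins that set channel gating and delivery. They were lowest in rat 35 for 10 of 10 genes that reached a mean FPKM of 1, with median deviations of 0.57, -1.91 and 1.43. Cnih2, a cornichon, was the most abundant at 118, 13.4 and 186 FPKM, above every pore-forming subunit. Cacng2, which encodes stargazin, had the widest range on FPKM + 1, at 6.36, 0.361 and 20.5 FPKM, and was higher in rat 70 than in rat 19, as Gria1 was. Cacng5, at 2.59, 0.073 and 9.50 FPKM, had a wider range by FPKM itself. Of the 5 assembly factors, 4 were lowest in rat 35 (0.07, -0.75 and 0.42). Frrs1l, needed for AMPA receptor biogenesis, was at 10.3, 2.82 and 36.1, while Cpt1c was at 32.5, 10.9 and 30.1.

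Both auxiliary subunits of kainate receptors had their lowest value in rat 35 and their highest in rat 70. Neto1 was at 9.65, 1.10 and 30.4 FPKM and Neto2 at 6.92, 2.73 and 14.5. This was the order of Grik4, Grik5 and all 4 AMPA subunits, and not that of Grik2. Of the 43 related genes, 29 were highest in rat 70, against 29.8% of all genes. Trafficking and clustering genes were lowest in rat 35 for 14 of 15 (0.58, -1.59 and 1.01). Nsf, an ATPase that binds the Gria2 product, was at 198, 21.8 and 238, and Nptx1, a pentraxin that gathers AMPA receptors at synapses, at 53.0, 1.52 and 117, a wider range than any subunit. Of 9 NMDA and delta receptor genes, 8 reached a mean FPKM of 1. All 8 were lowest in rat 35 (0.34, -0.86 and 0.70), with Grin1, the obligate NMDA subunit, at 39.96, 1.79 and 66.7. Grin3b, below that mean, was highest in rat 35, at 0.081, 0.230 and 0 FPKM.

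The RNA editing enzymes did not share one order. Adar was level at 30.8, 29.8 and 29.7 FPKM, so that rat 35 was not low at this gene. Adarb1, which encodes the enzyme that edits the Gria2 pore site, was at 6.73, 4.35 and 39.8, and its catalytically inactive relative Adarb2 at 1.33, 0.693 and 9.62. Both were higher in rat 70, where Gria2 itself was level with rat 19. Editing was not measured by these tables.

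**Figure D4:**
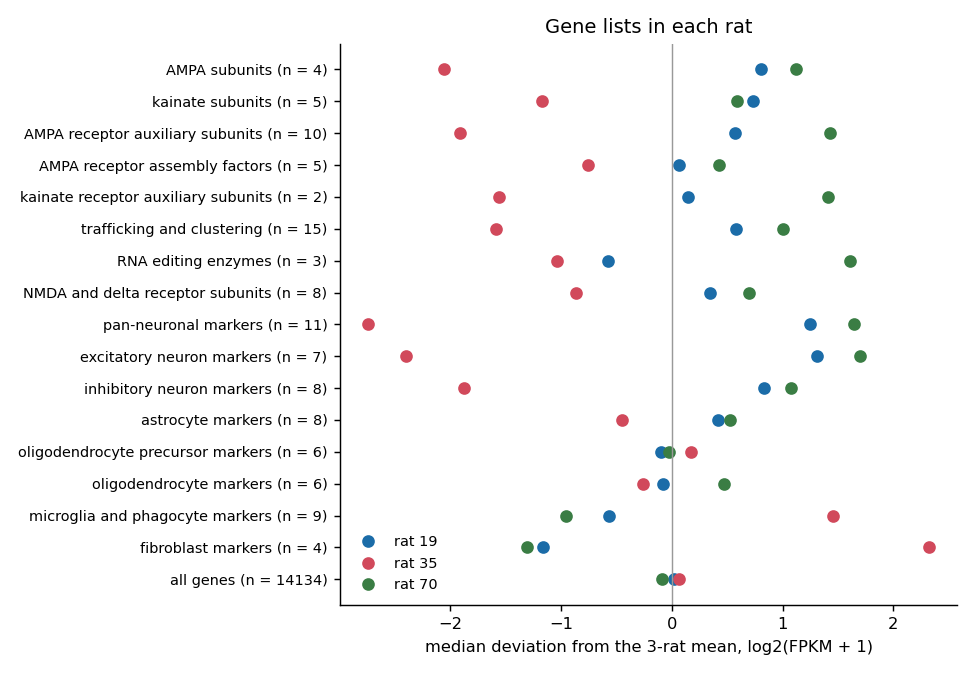
Median deviation from the 3-rat mean of log2(FPKM + 1) for the subunits, related gene lists, cell type markers and all genes, with 1 point per rat and the number of genes at a mean FPKM of at least 1 in brackets. Subunit and neuronal lists lie below 0 in rat 35, while microglia and fibroblast markers lie above 0 there.

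The genes whose pattern over the 3 rats was most like that of a family sum were found by the distance between centred log2(FPKM + 1) values among 9672 named genes that reached a mean FPKM of 5. Nearest to the AMPA sum were Reep1 (distance 0.03, at 26.9, 2.23 and 36.3 FPKM), Jakmip1 (0.07), Rtn4r (0.07), Mal2 (0.08) and Ppfia3 (0.09). Rtn4r encodes a receptor of myelin inhibitors of axon growth and Ppfia3 a liprin of presynaptic active zones. Nearest to the kainate sum were Galnt16 (distance 0.01, at 24.6, 4.71 and 29.0), Fam212b (0.02), Sertm1 (0.02), St8sia5 (0.02) and Cd99l2 (0.04). With 3 rats, such likeness rests mainly on the low value of rat 35.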

How the data were processed

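Messenger RNA was sequenced from 3 libraries, taken as separate animals because the labels number each rat. The deposited FPKM were calculated by the authors with a Perl script from normalized fragment counts per gene, per the labels' design text. The submitters' processing notes name HISAT2 2.0.4, StringTie 1.3.0 and the build Rnor 6.0, with no role for each; how fragments were normalized is not given in the sources.

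FPKM was used as deposited, on the log2(FPKM + 1) scale for differences, which understates those of low genes. Depth and gene lengths were recovered in Python 3.11.15 from the steps of the values: the length is the shortest up to 20000 bases that gives whole fragments in all rats, within 0.005. Of 2000 sampled genes 99.9% had one, against 2.45% after random changes. If all 3 fragment numbers of a gene shared a factor, the fragments are understated. The recovery and the fold counts were also run on simulated data, and no result above rests on that run. With 1 group, no test between groups was possible. Neighbour ratios were tested by exact permutation in scipy 1.17.1, with Benjamini-Hochberg adjustment.

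The members and lists were chosen with earlier results of these data known. Named genes are all members, in each list the gene with the highest mean and that with the widest fold range, and the 5 genes nearest each family sum. Further genes named from the lists were chosen after their values were seen. The alternatives were a pseudocount of 0.1, other FPKM minima, 2 scalings, shares of fragments (also with Gria3 at 2 times its length, added after seeing the data), excitatory markers as the reference and leaving out each rat.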

Additional observations from a re-analysis of the deposited data

How the results depend on the processing

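No paired analysis was possible because the rats form 1 group. The sign of the mean log2 ratio of AMPA over kainate FPKM and the lowest place of rat 35 (9 of 9 members, or 7 of 7 with a mean FPKM of 5) kept their direction under the alternatives run. The AMPA share of the 9 genes, 54.1% in rat 35 by FPKM, was 49.1% there by fragments, below the kainate share, and 52.3% with Gria3 at 2 times its recovered length, an alternative chosen after seeing the data. Relative to excitatory markers, 9 in place of 7 members were highest in rat 35 with a pseudocount of 0.1. Rat 35 decided most differences in level between rats. Without it, 2 of 9 members differed by more than 2-fold, the range of median deviations fell from 2.497 to 0.18, the median range relative to pan-neuronal markers fell from 2.09 to 0.56, and 13 of 43 related genes differed by more than 2-fold. The SD of the AMPA share of the 9 genes also fell, from 9.43 to 1.93. Within the families rat 35 did not decide the shares. On leaving it out the SD rose from 7.69 to 10.7 for the Gria1 share and from 6.94 to 9.34 for Grik4, while it fell from 3.01 to 2.88 for Grik2 and from 1.95 to 1.51 for Grik5. Leaving out each rat in turn gave 2 to 9 members over 2-fold, ranges of 0.18 to 2.34 for the deviation and 0.56 to 2.01 relative to markers, and 13 to 36 related genes. The mean summed FPKM of the 9 members was 123 to 246 on leaving out a rat, and 337 in place of 174 after rescaling each library to a sum of 1000000, which raised the median gene by 0.84 (log2) and left the shares as they were. Shares of fragments, not divided by length, gave Gria3 14.1% in place of 25.9%, Gria4 14.1% in place of 8.16%, Grik2 18.0% in place of 10.3% and Grik5 56.9% in place of 60.0%. The fragment share of Gria3 rests on the shortest length that fits and was 24.7% at 2 times that length. Depth limited Grik1 and Grik3 in rat 35, at 26 and 31 fragments.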
